A study of Mus musculus with 3 samples.

Results

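Toll-like receptors are membrane proteins with which cells of innate immunity sense parts of microbes and nucleic acids, and Myd88 is the adaptor protein through which most of them signal. The 8 genes described here are Tlr2, Tlr3, Tlr4, Tlr7, Tlr8, Tlr9, Tlr13 and Myd88, taken by symbol from the 32285 features measured. All 8 were found. The study holds 3 single-cell RNA libraries, 1 each for control, DU101 and DU102. Their cells were live and CD45+, and came by sorting out of liver tumours from 18-week-old mice of the C57BL6 strain labelled MYC-ON. CD45 is the surface protein that marks white blood cells. The label MYC-ON is shared by all 3 groups, and the labels do not state which promoter or cell type drives MYC. Neither are the nature, dose and duration of DU101 and DU102, what the control animals received (the library labelled CONTROL has data files that carry the name DMSO), or the number of animals behind a library. With 1 library per group there is no replicate check of any difference and no test was possible. All intervals are exact 95% Poisson or binomial intervals and cover counting error only.

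The filters kept 10154 cells of control, 13799 of DU101 and 11461 of DU102. Their median number of molecules counted (UMIs) was 6336, 4832 and 5091. Cells were assigned to types by fixed marker genes, and 14 types had at least 50 cells in every library. In each of these 14 types the 10 leading genes held at least 3 of its own markers and 0 markers of another type. The cells were chosen by these same markers, so this cannot test the names of the types. Hepatocyte or tumour cells and endothelial cells were present despite the CD45 sort. Xist, the RNA of the inactive X chromosome in females, was counted in 56.0% of control cells and in 0.138 and 0.0698% of DU101 and DU102 cells, while Y-linked RNA was counted in 21.0, 46.8 and 52.5%. The control library therefore mixed cells with Xist and cells with Y-linked RNA. Sex and treatment cannot be told apart for cells with Xist, and this touches Tlr7, Tlr8 and Tlr13, which lie on the X chromosome. Between 37 and 57 barcodes were shared by each pair of libraries.

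The receptors divide by where they work. Tlr2 and Tlr4 act at the cell surface, Tlr2 on bacterial lipoproteins and Tlr4 on lipopolysaccharide. Tlr3 binds double-stranded RNA, Tlr7 and Tlr8 single-stranded RNA, Tlr9 DNA with unmethylated CpG and Tlr13 bacterial ribosomal RNA, all in endosomes. Tlr3 signals through the adaptor Ticam1 instead of Myd88, and Tlr4 uses both. In liver, Kupffer cells, the resident macrophages, are known to meet gut-derived lipopolysaccharide, and plasmacytoid dendritic cells (pDC) are known for sensing nucleic acids through Tlr7 and Tlr9.

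The genes lie on 5 chromosomes. In the GENCODE annotation vM21 of GRCm38, the assembly also called mm10, Tlr2 is at chr3:83836272-83841767 on the minus strand, Tlr4 at chr4:66827584-66930284 on the plus strand, Tlr3 at chr8:45395665-45411080 on the minus strand and Tlr9 at chr9:106222598-106226883 on the plus strand. Tlr7 (chrX:167304929-167330558) and Tlr8 (chrX:167242696-167264329) are neighbours on the minus strand, 40599 bp apart, and Tlr13 lies elsewhere on the X chromosome (chrX:106143204-106160493, plus strand). Myd88 (chr9:119335934-119341411, minus strand) overlaps Slc22a14 on its own strand and Acaa1a on the opposite one, and Tlr3 overlaps the antisense gene Gm45542. No source used here states whether the counting used strand, so UMIs of Myd88 and Tlr3 are uncertain to the extent that reads fall in the overlaps.

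Promoter sequence from RefSeq (GRCm38.p6) was at hand for 6 of the 8 genes, Tlr2, Tlr3, Tlr8, Tlr9, Tlr13 and Myd88. The 250 bases before the RefSeq start are printed for 4 of them. Tlr2 and Tlr13 are shown because their levels across cell types were the most alike of any pair, Tlr3 because its cell types were the most unlike those of the other genes, and Myd88 because it was counted in every type. Capitals mark matches to 4 searched motifs on either strand, and each sequence reads 5′ to 3′ along the gene's strand.
Tlr2: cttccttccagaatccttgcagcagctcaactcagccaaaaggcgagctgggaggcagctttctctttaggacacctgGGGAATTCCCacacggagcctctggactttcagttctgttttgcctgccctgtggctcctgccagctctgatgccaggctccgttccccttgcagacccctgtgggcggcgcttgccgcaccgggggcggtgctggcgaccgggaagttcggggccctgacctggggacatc
Tlr13: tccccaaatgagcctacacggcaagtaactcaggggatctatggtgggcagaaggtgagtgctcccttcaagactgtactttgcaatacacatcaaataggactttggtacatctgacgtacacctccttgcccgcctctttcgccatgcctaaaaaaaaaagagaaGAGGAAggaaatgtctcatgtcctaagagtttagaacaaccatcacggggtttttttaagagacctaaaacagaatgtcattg
Tlr3: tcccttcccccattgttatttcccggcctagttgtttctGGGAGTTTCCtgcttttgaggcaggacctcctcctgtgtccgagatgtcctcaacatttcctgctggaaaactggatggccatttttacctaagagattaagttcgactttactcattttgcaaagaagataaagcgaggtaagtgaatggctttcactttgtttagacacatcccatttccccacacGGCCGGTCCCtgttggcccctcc
Myd88: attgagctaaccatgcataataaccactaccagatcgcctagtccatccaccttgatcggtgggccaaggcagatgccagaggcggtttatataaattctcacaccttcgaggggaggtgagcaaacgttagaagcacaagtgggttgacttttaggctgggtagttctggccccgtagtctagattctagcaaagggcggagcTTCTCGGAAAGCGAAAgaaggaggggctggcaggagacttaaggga
These windows are chr3:83841609-83841858 (minus strand) for Tlr2, chrX:106143025-106143274 (plus strand) for Tlr13, chr8:45410381-45410630 (minus strand) for Tlr3 and chr9:119340019-119340268 (minus strand) for Myd88. The RefSeq starts of these 4 genes lie downstream of the GENCODE gene starts, so the windows are not wholly upstream of the annotated gene. The windows of Tlr3 and Myd88 lie wholly inside the GENCODE gene, and those of Tlr2 and Tlr13 partly. The window of Tlr2 holds 1 palindromic match to the kB motif (GGGA, any 4 bases, CC), 172 to 163 bases before the start, and that of Tlr3 holds 2 matches to it, at 211 to 202 and at 23 to 14 bases. A match to this motif stood in 17.6% of the 32851 promoters in the table. The window of Tlr13 holds 1 match to GAGGAA, the ETS or PU.1 core, at 83 to 78 bases before the start, as 23.3% of promoters do. The window of Myd88 holds the interferon-stimulated response element core (GAAA, any 2 bases, GAAA) at 40 to 31 bases before the start, overlapping a match to the GAS motif (TTC, any 3 bases, GAA) at 46 to 38 bases. These motifs stood in 2.98 and 7.02% of promoters. Of the windows not printed, that of Tlr8 matched the GAS motif and GAGGAA, and that of Tlr9 matched GAGGAA. The matches are descriptions of letters in these windows.

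**Figure D1:**
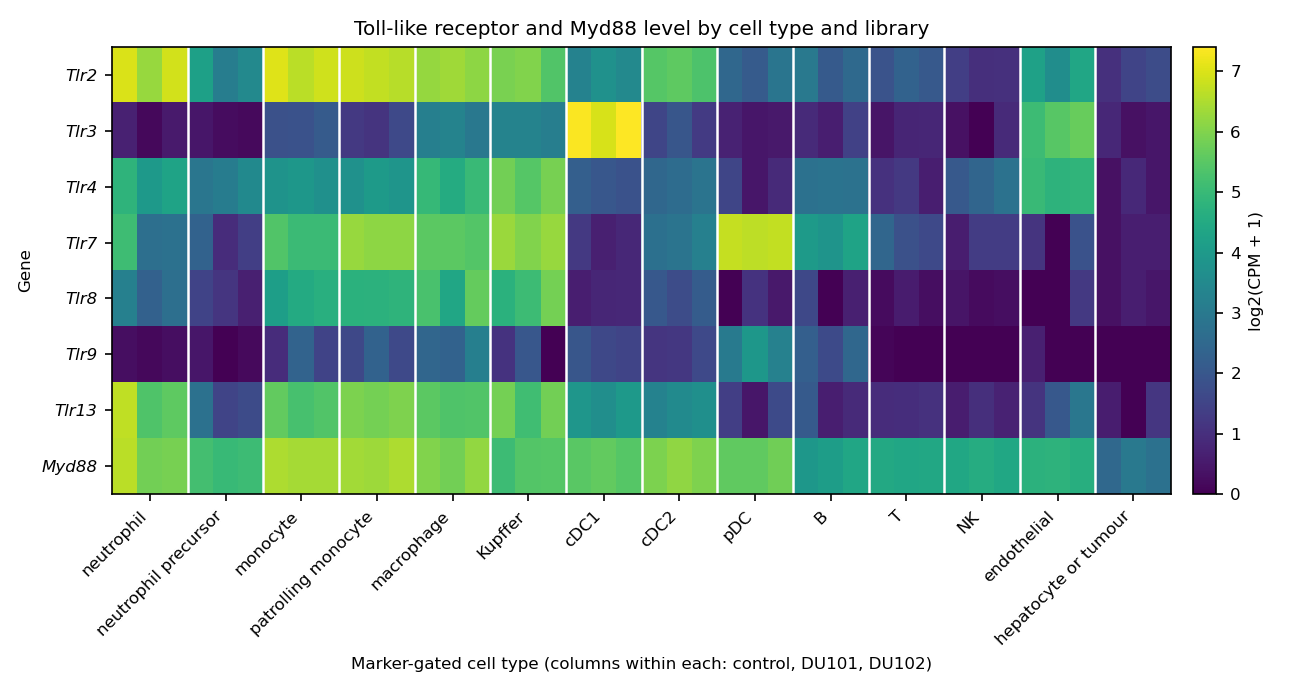
Level of each gene as log2(CPM + 1) (colour) in 14 marker-gated cell types, with 3 columns per type for control, DU101 and DU102 from left to right. Tlr3 is bright in cDC1 and endothelial cells, Tlr7 in pDC, and Myd88 has signal in every type, while Tlr9 is dim throughout.

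Levels were summed over the cells of a type in a library and divided by all UMIs of that type in that library, and scaled to counts per 1e6 UMIs (CPM). Tlr2 was highest in monocytes, at 130 CPM in control, 98.7 in DU101 and 115 in DU102. Neutrophils followed at 126, 75.3 and 119 CPM, and patrolling monocytes at 113, 104 and 96.9 CPM. The ranges of these 3 types over the libraries overlapped, so their order is not settled. Macrophages lay below them at 69.4 to 80.1 CPM, and Kupffer cells (41.0 to 63.0 CPM) overlapped with cDC2 (39.4 to 46.3 CPM), the dendritic cells that chiefly prime CD4 T cells. In NK cells Tlr2 was at 0.989 to 1.57 CPM. Tlr2 UMIs were counted in 47.8, 35.6 and 43.8% of monocytes in control, DU101 and DU102, against 1.66, 0.812 and 0.766% of NK cells, the type with the lowest mean level. The NK cells were nonetheless deeper (medians of 10330, 7170 and 8387 UMIs against 7964, 5793 and 7621). After thinning every cell to 2000 UMIs, 21.6, 17.6 and 20.8% of monocytes still had a Tlr2 UMI.

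Tlr4 was highest in Kupffer cells, at 55.3 CPM in control, 43.0 in DU101 and 58.4 in DU102, and this range did not overlap with the next type. Endothelial cells (26.7 to 31.3 CPM), macrophages (22.5 to 31.4 CPM) and neutrophils (15.1 to 27.4 CPM) followed with ranges that overlapped from one to the next. Both monocyte types lay between 12.2 and 15.2 CPM. Of the Kupffer-gated cells, 73.2% lay at the lowest number of markers the gate accepts, and the gate is a range more than a clean type.

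Tlr3 was nearly confined to 2 types. In cDC1, the dendritic cells that cross-present antigen to CD8 T cells, it reached 164 CPM in control, 122 in DU101 and 168 in DU102, and in endothelial cells 32.5, 43.2 and 50.6 CPM. The other 12 types ranged from 0 to 8.995 CPM. Tlr3 UMIs were counted in 79.0, 68.7 and 82.5% of cDC1 in control, DU101 and DU102, and in 0.234, 0.331 and 0.398% of T cells. The median depth was 16746, 14621 and 15966 UMIs in cDC1 and 5669, 4065 and 4809 UMIs in T cells. Thinned to 2000 UMIs per cell, the shares were 25.7, 18.4 and 29.4% of cDC1. Tlr3 stood among the 10 genes that lead the cDC1 gate, although it was not one of the gate's markers.

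Tlr7 was highest in pDC and nearly level across the libraries there, at 106 CPM in control, 101 in DU101 and 105 in DU102. Patrolling monocytes (76.0, 69.8 and 70.4 CPM) and Kupffer cells (76.5, 63.0 and 75.7 CPM) came next and overlapped. Macrophages held 42.2 to 45.6 CPM, monocytes 32.0 to 41.1 CPM and B cells 13.1 to 18.5 CPM. Neutrophils stood apart among the types by their spread: 33.3 CPM in control against 5.57 in DU101 and 5.79 in DU102. Of the dendritic cells, cDC2 held 5.69 to 8.30 CPM and cDC1 0.563 to 1.33 CPM. In pDC, 51.5, 43.8 and 50.8% of cells had a Tlr7 UMI, and 14.9, 18.0 and 13.5% after thinning to 2000 UMIs, against 2.63, 1.19 and 1.19% of T cells unthinned.

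Tlr8, the neighbour of Tlr7, was nearly absent from pDC, where Tlr7 was highest. There it was at 0 UMIs in control, 1.11 CPM in DU101 and 0.427 CPM in DU102, and of 1078 pDC, 520 had a UMI of Tlr7 only, 2 of Tlr8 only and 2 of both. Of 2023 patrolling monocytes, 515 had a UMI of Tlr7 only, 168 of Tlr8 only and 105 of both. The highest levels of Tlr8 were in Kupffer cells (25.7, 33.0 and 56.8 CPM in control, DU101 and DU102), macrophages (37.6, 19.9 and 49.6 CPM) and patrolling monocytes (25.5, 25.9 and 27.4 CPM), whose ranges overlapped. Monocytes held 16.7 to 24.2 CPM, and each of the other types less than 9 CPM.

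Tlr9 was scarce. The highest level was in pDC, at 7.07 CPM (22 UMIs) in control, 14.1 CPM (38 UMIs) in DU101 and 8.54 CPM (20 UMIs) in DU102. Macrophages had 4.48, 4.06 and 8.22 CPM and B cells 3.72, 2.18 and 4.55 CPM. No Tlr9 UMI was counted among 1023 control, 739 DU101 and 522 DU102 NK cells, which allows at most 0.248, 0.494 and 0.628 CPM at a limit of 3 counts.

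Tlr13 followed Tlr2 in its cell types. Neutrophils had 102 CPM in control, 40.1 in DU101 and 46.8 in DU102, patrolling monocytes 60.1, 56.3 and 62.1 CPM, Kupffer cells 56.4, 34.0 and 55.2 CPM, and macrophages and monocytes 37.0 to 48.2 CPM. Neighbouring types in this order overlapped. Both types of conventional dendritic cell held 8.78 to 15.1 CPM. In pDC, B, T, NK and hepatocyte or tumour cells Tlr13 was at most 3.31 CPM.

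Myd88 was counted in all 14 types of all 3 libraries. By the mean of the libraries it was highest in monocytes (88.4, 84.2 and 84.1 CPM in control, DU101 and DU102) and patrolling monocytes (81.8, 79.3 and 88.4 CPM), which overlapped. Neutrophils had 98.5 CPM in control but 55.8 and 57.5 in DU101 and DU102. T cells were at 21.0, 19.9 and 20.7 CPM, and hepatocyte or tumour cells lowest, at 4.62 to 6.97 CPM. Myd88 UMIs were counted in 47.2, 37.2 and 44.3% of monocytes.

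Across the 14 types, taking the mean log2(CPM + 1) of the 3 libraries, the pair most alike was Tlr2 and Tlr13 (Pearson r = 0.9498), followed by Tlr8 and Tlr13 (r = 0.893). Tlr7 and Tlr9 gave r = 0.733, and Tlr3 gave between -0.158 and 0.329 with the other 7 genes. These are descriptions over 14 types that share the libraries and differ in depth. Among the genes outside the list and the gate markers, those most like Tlr2 were Cd14, the lipopolysaccharide co-receptor (r = 0.969), Lst1 and Hacd4. For Tlr9 they were Cd180, a receptor related to the Toll-like family (r = 0.944), Ly86, its partner protein, and Slc15a4, an endolysosomal transporter. For Tlr8 they were Csf1r, the receptor for macrophage colony-stimulating factor (r = 0.963), Adgre1, which encodes the macrophage marker F4/80, and Gm5150. For Tlr13 they were Lrrc25, Lpcat2 and Cd300lb, for Myd88 Ptpre, Ehbp1l1 and Milr1, for Tlr7 Ptprj, Cacna1d and Tgfbr1, for Tlr3 Zfp366, P3h2 and Sult1a1, and for Tlr4 Sec14l1, Sdcbp and Rab31.

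To ask where the treated libraries differed from control, each gene in each type was called higher or lower when the ratio of CPM was at least 1.5-fold and its interval lay on that side of 1. This is a rule of size and not a test, and 30 UMIs over both libraries were needed. Both treated libraries are compared with the same control library. In DU101 over control, 64 of the 112 gene and type pairs had enough UMIs, and 2 were called higher and 11 lower. Over all genes and types, 3.77% were called higher and 7.91% lower. In DU102 over control, 4 of 63 pairs were called higher, where the background was 4.12%, and 7 lower, where it was 5.63%. The median log2 ratio of the pairs was -0.07 in DU101 and -0.02 in DU102.

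**Figure D2:**
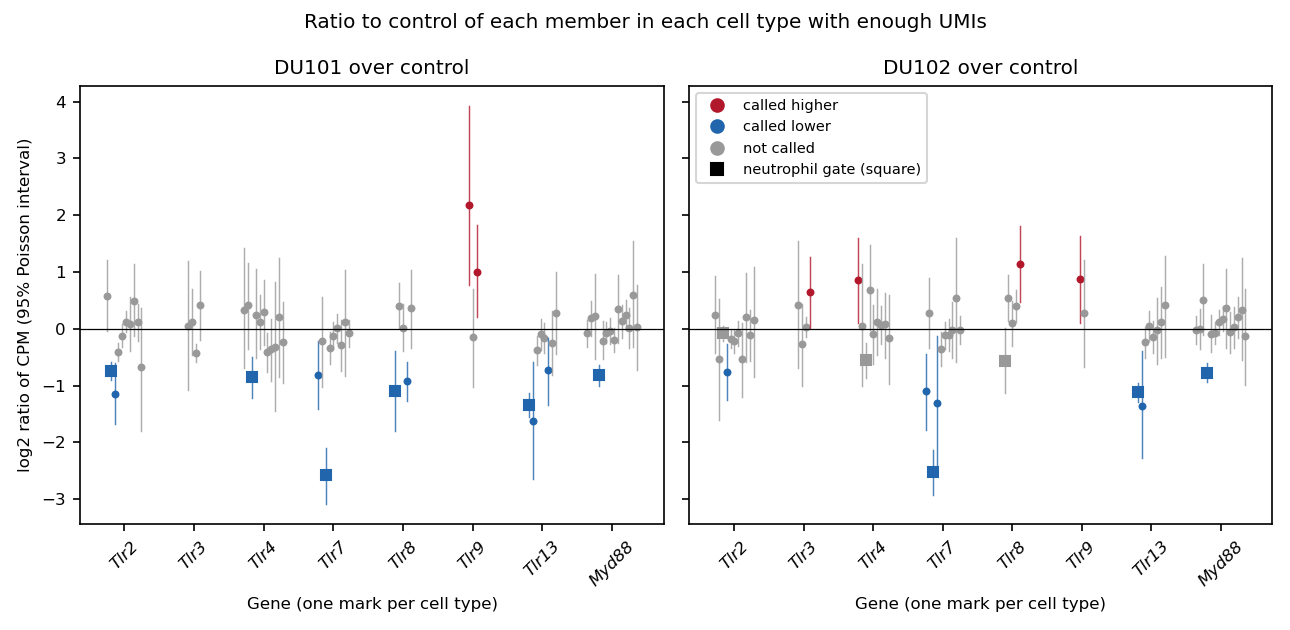
Log2 ratio of CPM to control, with its 95% Poisson interval, for each gene (x axis) in each cell type with at least 30 UMIs over both libraries. DU101 is on the left and DU102 on the right. Squares mark the neutrophil gate. The lowest point of each panel is Tlr7 in neutrophils.

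Neutrophils held 6 of the 11 lower pairs of DU101 and 3 of the 7 of DU102. In DU101 all 6 genes with enough UMIs were lower, in a gate where 22.0% of all genes were called lower. Tlr7 was 5.97-fold lower (interval 4.28 to 8.47), Tlr13 2.54-fold (2.20 to 2.92), Tlr8 2.13-fold (ratio 0.469, 0.286 to 0.763), Tlr4 1.81-fold (1.41 to 2.33), Myd88 1.77-fold (1.55 to 2.01) and Tlr2 1.67-fold (1.49 to 1.87). In DU102, where 25.9% of all genes in the gate were called lower, Tlr7 was 5.74-fold lower (4.37 to 7.61), Tlr13 2.17-fold (1.93 to 2.45) and Myd88 1.71-fold (1.53 to 1.92). Tlr2 was not called there, at a ratio of 0.945 (0.861 to 1.04). Tlr4 and Tlr8 were not called either, as their ratios of 0.679 and 0.674 fell just short of 1.5-fold. Without the neutrophil gate, 5 of 58 pairs were lower in DU101 against a background of 6.86%, and 4 of 57 in DU102 against 4.03%.

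The makeup of the neutrophil gate differed between the libraries. It held 2 main clusters from joint clustering of all cells, made without the 8 genes. Cluster 13 had little RNA of the secondary granule gene Camp (84.7, 513 and 651 CPM in control, DU101 and DU102), and cluster 14 had much (36415, 38022 and 36894 CPM). Camp is made in maturing neutrophils. Cluster 13 made up 86.2% of control neutrophils, 47.2% in DU101 and 56.1% in DU102, and cluster 14 10.2, 44.8 and 37.0%. Over all 3 libraries, every one of the 6 genes was lower in cluster 14 than in cluster 13. Tlr2 was at 252 CPM in cluster 13 and 63.3 in cluster 14, Tlr13 at 145 and 24.4, Tlr4 at 45.3 and 9.37, Myd88 at 121 and 47.1, Tlr7 at 26.7 and 4.76, and Tlr8 at 12.3 and 3.29.

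Within cluster 13, Tlr7 was the only one of the 6 genes called lower in either treated library. Tlr7 was at 50.1 CPM (148 UMIs in 984 cells) in control, 13.5 CPM (21 UMIs in 699 cells) in DU101 and 10.8 CPM (33 UMIs in 1143 cells) in DU102. The ratio to control was 0.268 (0.161 to 0.426) in DU101 and 0.215 (0.143 to 0.316) in DU102, and only 0.549 and 0.254% of all genes with enough UMIs in this cluster had a lower ratio. Of all genes in cluster 13, 6.98% were called lower in DU101 and 12.3% in DU102. Tlr13 (156, 128 and 143 CPM), Myd88 (132.1, 111 and 117 CPM), Tlr4 (40.0, 47.4 and 49.4 CPM) and Tlr8 (10.8, 8.97 and 15.4 CPM) were not called in either comparison with control, although the interval of Tlr13 in DU101 lay below 1 (ratio 0.824, 0.695 to 0.975).

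Tlr2 in DU102 was above control within both clusters. In cluster 13 it was at 185 CPM in control, 222 in DU101 and 332 in DU102, so that DU102 was called higher, at a ratio of 1.80 (1.62 to 2.00), where 5.74% of genes were. In cluster 14 it was at 47.5, 49.3 and 74.8 CPM, again called higher in DU102, at 1.58 (1.21 to 2.08), where 3.34% of genes were. DU101 was not called in either cluster, with ratios of 1.199 (1.04 to 1.37) and 1.04 (0.783 to 1.40). In cluster 14, Tlr7 was at 6.12, 3.99 and 5.01 CPM, with 8 UMIs in control, too few to show a difference.

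**Figure D3:**
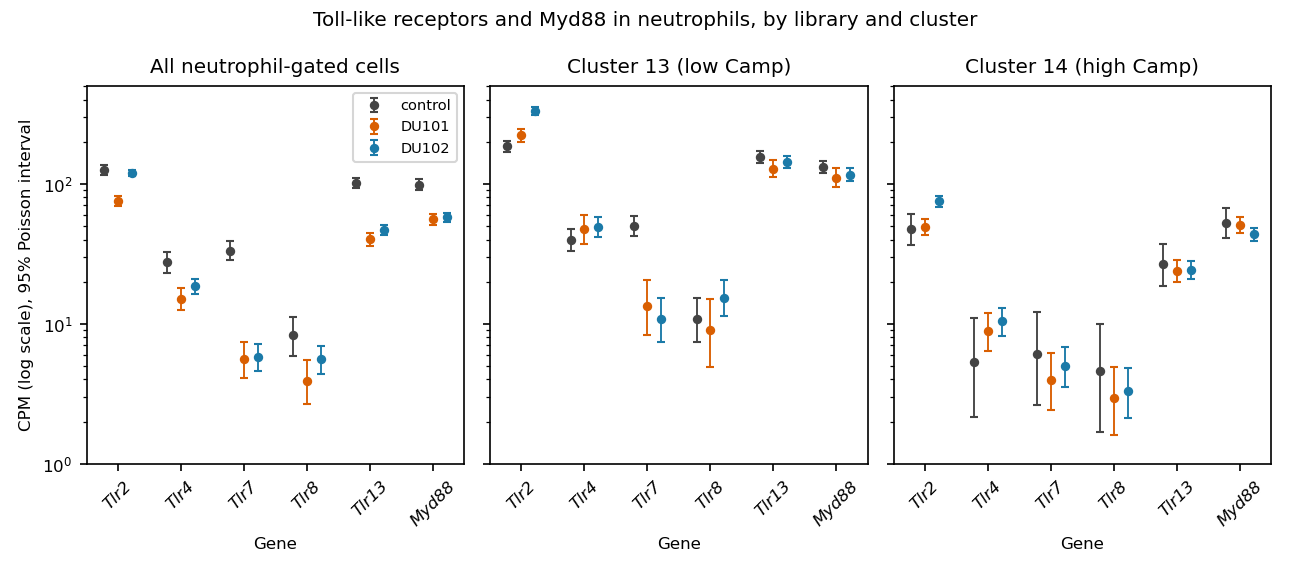
CPM on a log scale, with 95% Poisson intervals, of 6 genes in all neutrophil-gated cells and in clusters 13 and 14, for control, DU101 and DU102. In all gated cells control is the highest for each gene. In cluster 13 Tlr7 is at 50.1 in control and at 13.5 and 10.8 in the treated libraries, and DU102 is the highest for Tlr2.

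Cluster 13 was further split by Retnlg, a gene of mature blood neutrophils, whose level in the cluster was 10833 CPM in control, 16811 in DU101 and 23667 in DU102. In cells with a Retnlg UMI, Tlr7 was at 43.7, 11.8 and 8.84 CPM, and in cells without one at 79.7, 24.8 and 26.3 CPM. Tlr7 was called lower in both treated libraries in each of these strata. Tlr2 in DU102 was called higher in cells with a Retnlg UMI (ratio 1.81, 1.62 to 2.02) but not in cells without one (1.34, 0.951 to 1.88), which held 77 control and 67 DU102 UMIs. The share of cluster 13 cells with a Tlr7 UMI was 11.2% (9.28 to 13.3) in control, 2.72% (1.64 to 4.21) in DU101 and 2.45% (1.63 to 3.52) in DU102, at median depths of 2630, 1788 and 2185 UMIs. After thinning to 1000 UMIs, which left out 16, 99 and 102 cells, it was 5.89, 0.667 and 1.25%. For comparison, T cells had 2.63, 1.19 and 1.19% at median depths of 5669, 4065 and 4809 UMIs. As a level, Tlr7 in cluster 13 was above that in T cells in the treated libraries too, at 13.5 (8.33 to 20.6) against 2.54 CPM (1.86 to 3.37) in DU101 and 10.8 (7.43 to 15.2) against 2.07 CPM (1.41 to 2.94) in DU102.

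In control cluster 13, Tlr7 was at 40.1 CPM in the 284 cells that had Y-linked RNA without Xist and at 55.0 CPM in the 71 cells that had Xist without Y-linked RNA, with overlapping intervals. Against the control cells in which Y-linked RNA but no Xist was counted, the ratio was 0.336 (0.187 to 0.586) in DU101 and 0.269 (0.164 to 0.441) in DU102. Markers of other cell types that hold Tlr7 were also counted in cluster 13. The 10 macrophage markers, all detected in each library, summed to 1238 CPM in control, 1049 in DU101 and 661 in DU102, and the 6 patrolling monocyte markers to 947, 700 and 564 CPM, against 24700 and 2115 CPM in control cells of these types. The 7 monocyte markers summed to 539, 529 and 591 CPM and the 6 pDC markers to 12.2, 8.97 and 10.8 CPM. The part of such RNA in the Tlr7 difference was not tested. In these sums over cells, fewer cells with a gene and less RNA per cell cannot be told apart.

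Neutrophil precursors, gated by primary granule genes, gave 2 lower pairs in DU101 and 3 in DU102, from only 75 control cells. Of all genes in this gate, 7.92% were called lower in DU101 and 7.98% in DU102. The gate accepted 38.5% of its cells at its lowest number of markers. Tlr2 was at 17.4 CPM (48 UMIs) in control, 7.87 CPM in DU101 and 10.2 CPM in DU102, with ratios of 0.452 (0.313 to 0.659) and 0.587 (0.420 to 0.833). Tlr13 was at 5.80, 1.87 and 2.26 CPM, on 16 UMIs in control. Tlr7 was lower in DU102, at 1.61 against 3.99 CPM, on 11 UMIs in control.

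In the whole macrophage gate, the only listed gene called lower in DU101 than in control was Tlr8. It was at 37.6 CPM in control (285 UMIs), 19.9 CPM in DU101 (98 UMIs) and 49.6 CPM in DU102 (175 UMIs), which is 1.89-fold lower in DU101 than in control (1.497 to 2.40), in a gate where 6.66% of genes were called lower. Its neighbour Tlr7 was level, at 45.5, 45.6 and 42.2 CPM. The macrophage gate joined cells of several clusters. Cluster 18 made up 14.1% of it in control, 2.11% in DU101 and 19.2% in DU102, and is left unnamed. Its leading genes against the other macrophage-gated cells were Lipg, Cxcl13, Fcrl5 and Cd300e, with the Fc receptor gene Fcgr4 also among the first 10. Cd300e is a marker of the patrolling monocyte gate, and was at 721 against 21.5 CPM.

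Cluster 18 had a receptor pattern of its own among macrophage-gated cells. Tlr8 was at 91.3 CPM (78.5 to 105) in cluster 18 and 28.5 CPM (25.3 to 31.9) in cluster 12, the largest cluster of the gate. Tlr7 was at 5.49 CPM (2.74 to 9.82) and 54.1 CPM (49.7 to 58.7), and Tlr13 at 7.48 CPM (4.19 to 12.3, on 15 UMIs) against an interval of 45.8 to 54.4 CPM (on 529 UMIs). Myd88 was at 111 CPM (97.1 to 127) against 54.1 CPM (49.7 to 58.7), and Tlr9 at 11.97 CPM (7.67 to 17.8) against 5.10 CPM (3.83 to 6.66). Tlr7 and Tlr8 therefore ran in opposite directions between these clusters. Among the 278 cells of cluster 18, 112 had a UMI of Tlr8 only, 5 of Tlr7 only and 6 of both, and among the 1383 cells of cluster 12 these numbers were 147, 307 and 85. The pattern was seen in control (Tlr8 91.9 and Tlr7 4.25 CPM in cluster 18, 141 cells) and in DU102 (98.7 and 7.05 CPM, 117 cells), and DU101 had 20 such cells.

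**Figure D4:**
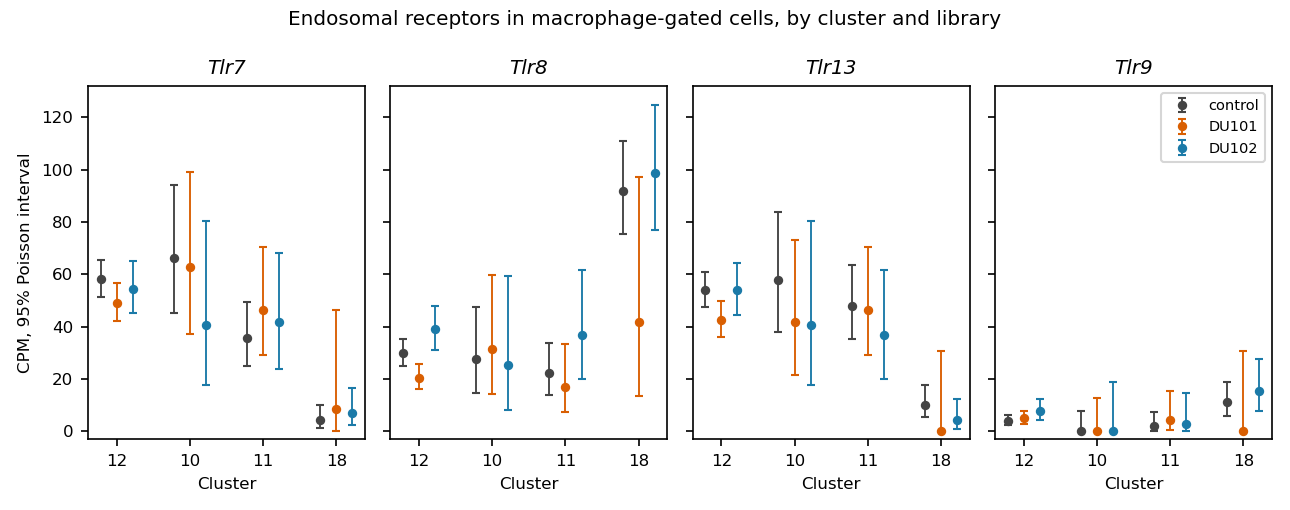
CPM with 95% Poisson intervals of Tlr7, Tlr8, Tlr13 and Tlr9 in 4 clusters of macrophage-gated cells, for control, DU101 and DU102. Cluster 18 is high for Tlr8 and low for Tlr7 and Tlr13 in control and DU102, and DU101 rests on 20 cells there.

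Within cluster 12 alone, Tlr8 was at 29.9 CPM in control, 20.4 in DU101 and 38.9 in DU102. The ratio of DU101 to control was 0.681 (0.508 to 0.908) and was no longer called, in a cluster where 4.41% of genes were called lower. Tlr8 was not alone there: the intervals of Tlr4 (ratio 0.702, 0.527 to 0.928) and Tlr13 (0.789, 0.643 to 0.967) also lay below 1. Neither was called, and the intervals of the other listed genes held 1. Tlr8 in macrophages with Y-linked RNA was also higher than in those with Xist within the control library, at 46.8 against 30.7 CPM (ratio 0.655, 0.498 to 0.860, for Xist over Y-linked). Across all genes and types, 5.84% were called lower in this comparison. It was made over the whole macrophage gate, and the cluster makeup of either side was not tested. In Kupffer cells Tlr8 was called higher in DU102, at 56.8 against 25.7 CPM (ratio 2.21, 1.39 to 3.496), on 36 and 46 UMIs, and DU101 had 33.0 CPM. Tlr13 in Kupffer cells was called lower in DU101, at 34.0 against 56.4 CPM (ratio 0.602, 0.396 to 0.897).

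The calls in other types were few and rested on few UMIs. Tlr9 was called higher in DU101 in pDC, at 14.1 against 7.07 CPM (ratio 1.99, 1.15 to 3.53), and in monocytes, on 25 against 5 UMIs, and in DU102 in macrophages, on 29 against 34 UMIs (ratio 1.83, 1.08 to 3.10). Within macrophage cluster 12 that Tlr9 ratio was 1.90 (0.927 to 3.86) and was not called. Tlr3 in endothelial cells was called higher in DU102, at 50.6 against 32.5 CPM (ratio 1.56, 1.00 to 2.40), and Tlr4 in NK cells at 5.86 against 3.22 CPM (ratio 1.82, 1.08 to 3.04). Tlr7 in T cells was lower in both treated libraries, at 2.54 and 2.07 against 4.45 CPM, on 47, 31 and 54 UMIs.

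Several genes in their highest types were not called. Tlr3 in cDC1 had a ratio of 0.746 (0.667 to 0.834) in DU101 and 1.03 (0.906 to 1.16) in DU102, and Tlr2 in monocytes of 0.757 (0.678 to 0.846) and 0.880 (0.787 to 0.983). Tlr7 in pDC had ratios of 0.947 (0.804 to 1.11) and 0.984 (0.831 to 1.16), so a change of 1.5-fold lies outside both intervals as far as counting error goes. Myd88 in monocytes had 0.953 (0.840 to 1.08) and 0.951 (0.833 to 1.09), and in T cells 0.945 (0.803 to 1.11) and 0.986 (0.833 to 1.17). Outside neutrophils, Myd88 was called in neither comparison with control.

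DU101 and DU102 were then compared with each other, which does not involve the control library. Of 64 pairs, 2 were called higher in DU101, where the background was 3.56%, and 4 lower, where it was 6.53%. The lower pairs were Tlr2 in neutrophils (75.3 against 119 CPM, ratio 0.634, 0.577 to 0.695), Tlr8 in macrophages (19.9 against 49.6 CPM, ratio 0.401, 0.310 to 0.516, where 8.34% of the genes in the gate were called lower), Tlr8 in Kupffer cells (33.0 against 56.8 CPM, ratio 0.581, 0.351 to 0.958) and Tlr9 in macrophages (0.494, 0.265 to 0.903), which was not called within cluster 12 (0.635, 0.309 to 1.31). The higher pairs were Tlr4 in T cells, on 25 against 8 UMIs, and Tlr9 in monocytes, on 25 against 9. Tlr8 in macrophages was also lower in DU101 within cluster 12 (ratio 0.523, 0.379 to 0.721), where 6.69% of all genes were called lower. Tlr2 in cluster 13 neutrophils had a ratio of 0.668 (0.589 to 0.755) and was not called, as it fell just short of 1.5-fold. It was called lower in cluster 14 (0.660, 0.564 to 0.769) and in cluster 13 cells with a Retnlg UMI (0.657, 0.576 to 0.748).

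For the X-linked receptors, control cells with Xist were compared with control cells with Y-linked RNA. In monocytes Tlr7 was at 46.7 against 32.7 CPM (ratio 1.43, 1.03 to 1.99), in macrophages at 50.4 against 35.3 CPM (1.43, 1.10 to 1.87) and in patrolling monocytes at 78.7 against 60.9 CPM (1.29, 0.913 to 1.88). In neutrophils it was at 39.7 against 23.4 CPM (1.70, 0.929 to 2.98). In T cells Tlr7 went the other way, at 3.53 against 6.35 CPM (0.5555, 0.281 to 1.16). None of these was called, where 6.49% of X-linked gene and type pairs were called higher and 4.67% lower. Tlr13 had ratios of 1.01 (0.756 to 1.35) in monocytes and 0.727 (0.569 to 0.929) in macrophages. Tlr8, lower with Xist in macrophages as given above, had ratios of 1.66 (0.978 to 2.96) in monocytes and 0.945 (0.547 to 1.73) in patrolling monocytes. Neither of these 2 was called. On chromosome 4, Tlr4 in neutrophils was higher in cells with Xist, at 39.7 against 17.9 CPM (2.22, 1.19 to 4.01), where 8.45% of all gene and type pairs were called higher. These are cells of 1 library, and the animals behind them are not known.

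The wider pathway was described by 49 genes grouped by role. In DU101 over control 17 of 562 gene and type pairs were called higher and 51 lower, and in DU102 over control 15 and 48 of 567. The share of lower pairs was 9.07 and 8.47%, where 7.91 and 5.63% of all gene and type pairs were called lower. The share of higher pairs was 3.02 and 2.65%, where 3.77 and 4.12% of all pairs were. These counts include the neutrophil gate, where 22.0 and 25.9% of all genes were called lower, and were not made without it. The same backgrounds stand beside the roles below, and no role is read as a shift. The kinases and ubiquitin ligases between receptor and NF-kB gave 0 higher and 12 lower of 177 pairs in DU101, and 6 and 10 of 178 in DU102. The transcription factors gave 9 higher and 7 lower of 82 pairs in DU101, and 2 and 6 of 82 in DU102. Irf7, which drives interferon genes after Tlr7 and Tlr9 signalling, was higher in DU101 in macrophages (277 against 134 CPM, ratio 2.06, 1.90 to 2.24) and in Kupffer cells (290 against 134 CPM, ratio 2.16, 1.82 to 2.58). These values are of whole gates, where 3.57 and 5.50% of all genes were called higher. The cluster makeup of the macrophage gate differed between the libraries, and Irf7 was not followed within clusters. The adaptors Tirap, Ticam1 and Ticam2 gave 1 higher and 4 lower of 33 pairs in DU101 and 0 and 1 of 33 in DU102.

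Among co-receptors, chaperones and inhibitors, Cd14, the co-receptor of Tlr4 and Tlr2, was lower in DU101 neutrophils, at 233 against 844 CPM (ratio 0.276, 0.262 to 0.292), and in DU102 B cells on 14 against 59 UMIs. Nfkbia, the inhibitor of NF-kB that is itself induced by NF-kB, was lower in neutrophils of both treated libraries, at 1527 and 1498 against 5346 CPM. These neutrophil values of Cd14 and Nfkbia are of the whole gate, where 22.0% of all genes in DU101 and 25.9% in DU102 were called lower. The cluster makeup of this gate differed between the libraries, and neither gene was followed within its clusters. Hsp90b1, the chaperone that folds most Toll-like receptors, was higher in DU101 B cells, at 1023 against 285 CPM (ratio 3.59, 3.29 to 3.92). Of all B-gated cells, 0.692% lay in cluster 22, which held 98.9% of the antibody-secreting plasma cells. Plasma cells were 0.404% of control cells, 3.17% in DU101 and 0.567% in DU102. In that order their median depth was 23080, 16078 and 19930 UMIs, against 3195, 2917 and 3016 in B cells. The part of such cells in the Hsp90b1 difference was not tested. In DU102, Hsp90b1 was higher in neutrophil precursors (785 against 447 CPM), Ctss, an endosomal protease that trims the nucleic acid receptors, in endothelial cells (148 against 74.2 CPM), and Ly86 in hepatocyte or tumour cells on 45 against 10 UMIs. Between the treated libraries, Hsp90b1 in B cells (1023 against 281 CPM), Cd14 in cDC1 (18.2 against 4.15 CPM) and Ctss in neutrophils (121 against 53.1 CPM) were higher in DU101. The limit given above for Hsp90b1 in B cells holds here too. Ctss in endothelial cells (52.5 against 148 CPM) and Lbp, the lipopolysaccharide-binding protein, in hepatocyte or tumour cells (12.3 against 28.8 CPM) were lower.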

How the data were processed

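Live CD45+ cells of 3 libraries (control, DU101, DU102) were measured with 10x 3′ v3 chemistry. The deposited matrices hold raw UMI counts. Per the file headers the software was Cell Ranger 6.0.0, and per the submitters' processing notes it was Cell Ranger 2.1.1 with mm10. No source used here names the annotation release. Each library's smallest barcode held 500 UMIs. The authors' tables by cluster were not used.

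Cells with at least 200 genes, at most 10% mitochondrial UMIs and no doublet call (Scrublet in scanpy 1.11.5; 265, 458 and 249 removed) were kept. Types were gated on 19 marker sets. Cells that passed no gate or several stayed out (721 and 554 control, 1341 and 651 DU101, 940 and 669 DU102 cells). Clusters came from Leiden at resolution 1.0 on 2000 variable genes, 30 principal components and 15 neighbours, without integration, the 8 genes, Xist or Y-linked genes. UMIs were summed per type and library to CPM, with the exact interval of a ratio of Poisson counts (scipy 1.17.1). The named genes were all 8 members in every type with 50 or more cells in each library, the 3 highest and 2 lowest pathway pairs per comparison by the interval end nearest to 1, and the 3 most alike genes per member among those with at least 10 CPM in a type. The ratio calls were tested on simulated counts. These were drawn from the Poisson model on which the interval rests. They check the calculation and say nothing of variation between libraries. The members, lists and markers were chosen with earlier results of these data known, and gate thresholds were set on how gates matched clusters. The clusters shown within the neutrophil and macrophage gates, the Retnlg split and the thinning to 1000 UMIs were chosen after seeing the data.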

Additional observations from a re-analysis of the deposited data

How the results depend on the processing

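No paired analysis was possible because the groups share only replicate number 1, with 1 library each. With 1 library a group, none could be left out. Of the alternatives, 11 were listed first and the cluster splits were added after seeing the data. Calls depended on the settings as follows. In DU101 over control, the 2 higher pairs became 1 with a mitochondrial limit of 5%, 4 with doublets kept, 1 with a stricter marker gate, 4 with cells weighted alike, 0 with cells thinned to 2000 UMIs and 1 at a fold of 2. The 11 lower pairs became 6 when thinned, 5 at a fold of 2, 6 with cluster 13 alone for neutrophils and 5 with cluster 14 alone. In DU102 over control, the 4 higher pairs became 0 when thinned and 1 at a fold of 2, and the 7 lower pairs became 4 with cells weighted alike, 3 when thinned and 4 with cluster 14 alone. In DU101 over DU102, the 2 higher pairs became 1 with the 5% limit, 5 with doublets kept, 1 with the stricter gate, 1 with clusters in place of gates and 0 when thinned. The 4 lower pairs became 2 with the stricter gate, 10 with cells weighted alike and 2 at a fold of 2. Thinning leaves fewer UMIs to count, and apart from that and from the splits by construction the cause was not tested. These ratios changed direction: Tlr2 in neutrophils, DU101 over control, was 1.199 in cluster 13 and 1.04 in cluster 14, and Tlr4 there was 1.19 and 1.65. Tlr9 in monocytes was 0.713 in DU101 over control and 0.517 in DU101 over DU102 when thinned. Tlr2 in neutrophil precursors was 1.13 in DU102 over control with the stricter gate, and Tlr3 in endothelial cells 0.858 against control cells that had Y-linked RNA but lacked Xist. With TMM factors 27 of the 30 called pairs stayed called in their direction, and with a mitochondrial limit of 20% all 30. Other settings kept fewer: 21 with cells weighted alike, 18 with the stricter gate and 11 when thinned. Using clusters in place of gates, 19 stayed and 9 weakened. Where the control was cut to Xist-free cells holding Y-linked RNA, 15 stayed, 7 weakened and 1 reversed. Tlr3, Tlr4, Tlr7 and Tlr9 had the same highest type in each setting run. Tlr9 and other pairs on few UMIs are limited by depth.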

Other observations

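Types with fewer than 50 cells in some library were left out of the comparisons. In migratory dendritic cells (98 control, 170 DU101 and 47 DU102 cells) Myd88 was at 14.7, 20.5 and 14.04 CPM, and Tlr13 at 12.6, 8.09 and 7.02 CPM. Tlr3 was at 1.05, 6.23 and 4.68 CPM in these cells, on 1, 10 and 2 UMIs, far under its level in cDC1. In plasma cells (41, 437 and 65 cells), which secrete antibody, Myd88 was at 7.57, 5.94 and 6.24 CPM, and each of the 7 receptors was at 3.12 CPM or less. In basophils or mast cells (33, 86 and 28 cells) Myd88 was at 11.8, 24.2 and 28.1 CPM, on 3, 12 and 4 UMIs. Tlr4 was at 3.95, 10.1 and 7.03 CPM, on 1, 5 and 1 UMIs. These counts are too few to show a difference between the libraries. Tlr7 and Tlr9 had 0 UMIs there, and Tlr7 is limited to at most 11.8, 6.04 and 21.1 CPM at 3 counts.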
